A study of Caenorhabditis elegans with 12 samples.

Results

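The long non-coding RNA tts-1 (sequence name F09E10.11) was followed through 12 RNA-seq libraries of whole early adult Caenorhabditis elegans. It is 1 of the 12894 genes in the deposited table and was chosen by its own level in these libraries, which is higher under daf-2 RNAi, so its difference between daf-2 RNAi and empty vector (EV) bacteria is described here without a test. All animals were wild-type N2 (Bristol), hatched without food into L1 arrest, the halt that newly hatched larvae enter when they find nothing to eat. Starved animals spent 8 days in that arrest and controls 1 day. They then recovered at 20 °C on HT115 bacteria that held either EV or a construct for RNA interference (RNAi) with daf-2 until eggs appeared. daf-2 encodes the worm's insulin/IGF receptor. The 4 groups, starved daf-2 RNAi, starved EV, control daf-2 RNAi and control EV, have 3 libraries each, lettered A, B and C. Recovery took about 68 hours in starved animals and about 52 hours in controls, so the length of arrest and that of recovery cannot be told apart.

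In worms, the DAF-2 receptor signals through a phosphoinositide 3-kinase and the AKT kinases to hold the transcription factor DAF-16 out of the nucleus. When the receptor is less active, DAF-16 enters the nucleus and its target genes change. The RNA of tts-1, named for its likeness to telomeric repeats, codes for no known protein, was first noticed in dauer larvae, and is known to be abundant in long-lived daf-2 mutants, to associate with ribosomes there and to be needed for their full life extension.

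The tts-1 gene lies on the minus strand of chromosome X, from 1504131 to 1504841 in the WBcel235 assembly, a span of 711 bases. Its annotation (WBGene00006650, type ncRNA) has 2 transcripts, 1 spliced and 1 covering the whole span. None of its bases overlaps another annotated gene on either strand, so the unstranded libraries do not mix it with an annotated antisense partner. The nearest annotated genes, the non-coding F09E10.14 and F09E10.10, lie 42 and 348 bases away and were not analysed here.

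Libraries held 21150912 to 30037731 reads over the listed genes, and tts-1 was covered by 215 to 8430 reads per library, so counting error was small beside the spread between libraries. Levels are the deposited normalised values, called CPM here, and differences are on the scale of log2(CPM + 1) from a limma fit of all 12830 tested genes, in which a gene is called at an adjusted p under 0.05. The level counted for the targeted gene was not lower under the RNAi label. Reads were not separated by strand, nor was their place along the gene examined, so this does not show whether its mRNA fell. Activity of the receptor was not measured, and genes known to follow DAF-16 are described below. The daf-2 level was 706, 289 and 111 CPM in starved daf-2 RNAi libraries A, B and C, against 193, 153 and 102 CPM in starved EV libraries, and 317, 202 and 118 CPM in control daf-2 RNAi libraries, against 188, 155 and 91.6 CPM in control EV libraries. It was thus higher under the RNAi label in each of the 6 pairs of the same letter, and the difference after 8 days was 0.96 ± 0.55 (log2, SE; limma, adjusted p = 0.212, or 0.00791 with the letter as a block). Every RNAi direction given here therefore follows the library labels. The level of daf-16 mRNA averaged 175 ± 15.9, 179 ± 36.9, 161 ± 8.31 and 163 ± 27.7 CPM in starved daf-2 RNAi, starved EV, control daf-2 RNAi and control EV libraries (SD, n = 3 each), and no comparison called it.

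The level of tts-1 was highest in starved daf-2 RNAi animals, lowest in control EV animals, and intermediate where only arrest or only bacteria differed from control EV. It stood at 169, 187 and 366 CPM in starved daf-2 RNAi libraries A, B and C. Starved EV libraries had 38.9, 32.5 and 49.1 CPM, control daf-2 RNAi libraries 47.3, 34.3 and 58.1 CPM, and control EV libraries 14.7, 11 and 10 CPM. The starved daf-2 RNAi libraries lay above all 9 others and the control EV libraries below all 9 others, while the 2 middle groups overlapped almost wholly.

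**Figure D1:**
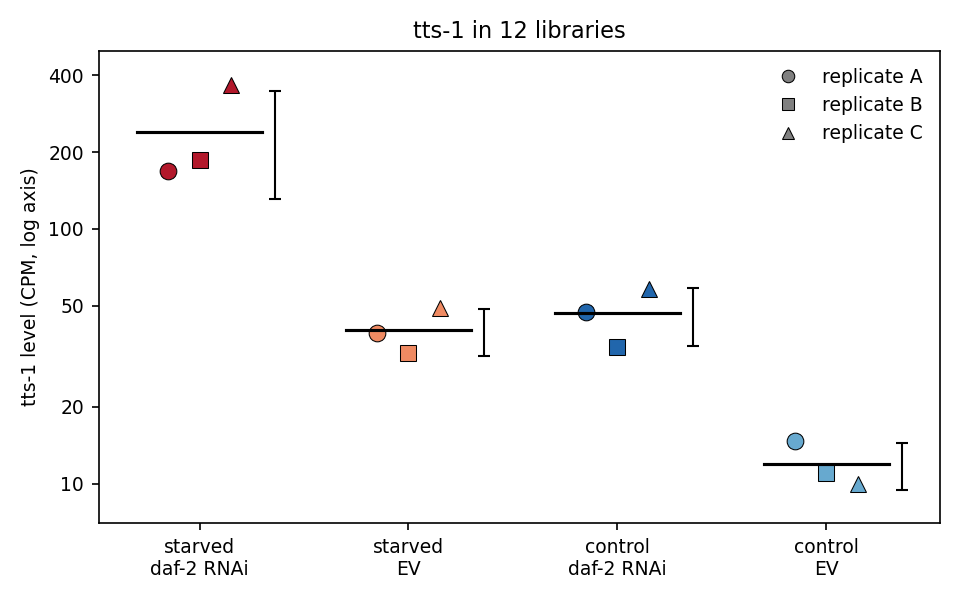
Level of tts-1 (CPM, log axis) in each of the 12 libraries, with symbols for the replicate letter, a line at each group mean and a bar of 1 SD beside it. Starved daf-2 RNAi libraries sit between 169 and 366 CPM, the 2 middle groups between 32.5 and 58.1 CPM, and control EV libraries between 10 and 14.7 CPM.

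Group means were 240 ± 109 CPM in starved daf-2 RNAi, 40.2 ± 8.37 CPM in starved EV, 46.6 ± 11.9 CPM in control daf-2 RNAi and 11.9 ± 2.49 CPM in control EV libraries (SD, n = 3 each). The mean of the starved daf-2 RNAi group was thus 20.2 times that of control EV. The spread was widest in starved daf-2 RNAi libraries, with a coefficient of variation of 45.3%, against 20.9% in starved EV, 25.6% in control daf-2 RNAi and 21% in control EV libraries. Library C was the highest of its letters in every group except control EV, where A was.

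Per kilobase of annotated exon, tts-1 was among the most abundant few percent of genes in starved daf-2 RNAi animals and near the middle in control EV animals. Its level was 238, 262 and 515 CPM per kb in starved daf-2 RNAi libraries A, B and C, ranks 415, 422 and 224 among the 12727 genes with an annotated length. In starved EV libraries it ranked between 1719 and 2978, and in control daf-2 RNAi libraries between 1721 and 3190. In control EV libraries its level of 14.1 to 20.7 CPM per kb gave ranks 5294 to 5975.

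The comparisons of starved with control animals address what long arrest leaves behind in recovered adults. They share libraries with the comparisons between bacteria that led to the choice of tts-1. Their p-values and ranks are thus not independent of that choice. On EV, tts-1 rose to 40.2 CPM in starved animals, against 11.9 CPM in controls, by 1.67 ± 0.28 (log2, SE; limma, adjusted p = 0.00263). The starved EV library held 2.64, 2.96 and 4.91 times the CPM of the control EV library for letters A, B and C. All starved EV libraries lay above all control EV libraries, which held for 23.4% of tested genes in that direction. limma called 17.7% of all tested genes here, 11.5% higher and 6.12% lower, and tts-1 was the 175th largest of 1481 called rises.

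On daf-2 RNAi bacteria tts-1 rose to 240 CPM in starved animals, against 46.6 CPM in controls, by 2.29 ± 0.28 (log2, SE; limma, adjusted p = 0.00201). The starved library had 3.57, 5.44 and 6.3 times the CPM of the control library for letters A, B and C. In this comparison limma called 0.701% of tested genes, 0.663% higher and 0.039% lower, and tts-1 was the 12th largest of the 85 called rises. The number of genes called was 28 without control daf-2 RNAi library B and 181 without starved daf-2 RNAi library B. The groups did not overlap, as for 9.08% of genes in that direction. Both arrest differences stayed called with any 1 of the 12 libraries left out, at adjusted p of up to 0.0167 on EV and 0.0166 on daf-2 RNAi. With 3 libraries against 3, the smallest p of an exact permutation test is 0.1, so these calls lean on the spread shared across genes.

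The comparisons of libraries labelled daf-2 RNAi with EV libraries address recovery on bacteria meant to target daf-2, whose counted level was not lower under that label. After 8 days of arrest the library labelled daf-2 RNAi had 4.35, 5.74 and 7.45 times the tts-1 CPM of the EV library for letters A, B and C. After 1 day of arrest the ratios were 3.21, 3.13 and 5.81. All 6 pairs had the higher level under the daf-2 RNAi label, by more than 3 times in each. The differences were 2.48 ± 0.28 after 8 days and 1.87 ± 0.28 after 1 day (log2, SE), the 9th and the 26th largest of 12830 genes. Groups did not overlap in either case, and the same held in that direction for 13.6% of genes after 8 days and 7.01% after 1 day. The pair with the smallest daf-2 difference in CPM at 8 days, C, with 111 CPM under the RNAi label and 102 CPM on EV, had the largest tts-1 ratio, and pair A, with 706 and 193 CPM of daf-2, the smallest. After 1 day pair C again had the largest ratio, but pair B, with 202 and 155 CPM of daf-2, had the smallest. Pair A had 317 and 188 CPM of daf-2 there. Letter C also had the largest tts-1 ratio in both comparisons of arrest length.

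**Figure D2:**
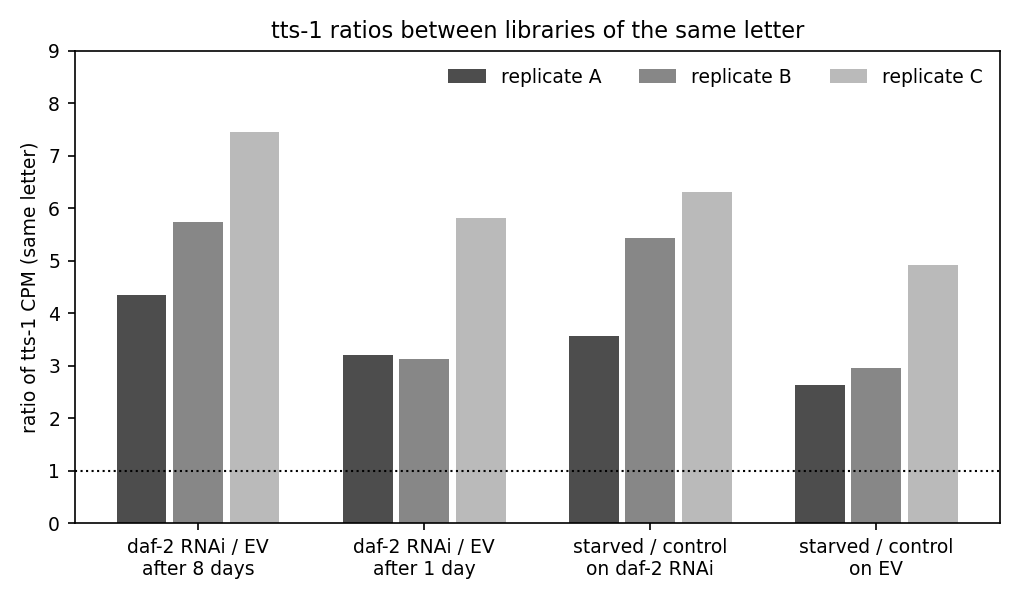
Ratio of tts-1 CPM between libraries of the same letter, for daf-2 RNAi over EV bacteria at both arrest lengths and for starved over control animals on both bacteria. The dotted line marks equal levels. All 12 ratios lie above it, from 2.64 to 7.45, and letter C gives the largest in each comparison.

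Whether arrest and bacteria act on tts-1 more than additively on the log scale was examined as an interaction. This is a difference between the RNAi differences that led to the choice of tts-1, so its p-values are not independent of that choice. The daf-2 RNAi difference after 8 days exceeded that after 1 day by 0.61 ± 0.40 (log2, SE; 95% interval -0.25 to 1.48; limma, adjusted p = 0.722, or 0.243 with the letter as a block). The RNAi ratio in starved animals was 1.36, 1.83 and 1.28 times that in controls for letters A, B and C. Without starved daf-2 RNAi library C the estimate was 0.27. limma called 0% of 12830 genes for this interaction, with 912 at an unadjusted p under 0.05. edgeR on recovered reads called 0, DESeq2 4, and limma with the letter as a block 63, or 0.491%.

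Other non-coding genes are described for the same comparisons. The table lists 30 other genes annotated as ncRNA or lincRNA, of which 29 were tested. After 8 days of arrest, where 3.8% of all genes were called higher and 11.9% lower (15.7% in all), none of the 29 was called higher under daf-2 RNAi and 4 were lower, shares near those of all genes. With the letter as a block none was higher and 9 were lower, against 23.7% of all genes higher and 24.3% lower. Their differences ran from -1.45 to 0.23. After 1 day, where 0.663% of all genes were called higher and 0.725% lower (1.39% in all), none was called. With the block 3 were lower, against 1.78% of all genes higher and 4.02% lower, and the differences ran from -0.67 to 0.25. The median difference was -0.22 at both arrest lengths, against 0.00 and -0.01 over all genes. After quantile normalisation the median after 8 days was 0.01. The lower genes after 8 days were tts-2, F57A8.9, rncs-1, an RNA known to inhibit Dicer, and T09F5.12. Their number was 0 without starved EV A or starved EV C, 1 without starved daf-2 RNAi B and 2 without starved daf-2 RNAi A. F57A8.9 shares 222 exon bases with the protein-coding gene F57A8.1, so its reads may be mixed with those of that gene here and below.

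Across arrest lengths the share of non-coding genes called was near that of all genes on EV. In starved EV against control EV animals tts-2, F57A8.9 and W05H9.3 rose and CD4.10 fell, 3 and 1 of the 29, against 11.5% of all genes higher and 6.12% lower, with a median difference of 0.11 (-0.21 after quantile normalisation), against 0.03 over all genes. The number called was 2 without control EV B, control EV C or starved EV C. In starved against control animals on daf-2 RNAi only tts-2 was called, and it rose, against 0.663% of all genes higher and 0.039% lower. With the letter as a block 6 of the 29 were higher on daf-2 RNAi, against 395 of the 12830 tested genes. On EV the block gave 9 higher and 1 lower, against 2995 and 3376 of all genes. Per kilobase tts-1 ranked 1st of the 31 non-coding genes in starved daf-2 RNAi libraries, at 338 CPM per kb, ahead of T05E11.9 at 118 CPM per kb. It ranked 7th in starved EV, 4th in control daf-2 RNAi and 9th in control EV libraries, where lep-5, a non-coding RNA of developmental timing, led at 126 CPM per kb and tts-1 had 16.7 CPM per kb.

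The gene that shares its name, tts-2 (R05H5.8, chromosome II, 10201125 to 10202230), followed arrest length above all. It had 25.3, 12.7 and 20.8 CPM in starved daf-2 RNAi libraries A, B and C and 77.2, 36 and 54.3 CPM in starved EV libraries. In control daf-2 RNAi libraries it had 2.38, 0.858 and 1.29 CPM, and in control EV libraries 2.08, 0.868 and 0.977 CPM. All starved libraries were far above all control libraries, and the EV libraries were the higher ones among the starved. It rose in starved animals by 4.59 ± 0.33 on EV (log2, SE; limma, adjusted p = 4.95e-06) and by 3.03 ± 0.33 on daf-2 RNAi (adjusted p = 9.9e-04). Under daf-2 RNAi it fell by 1.45 ± 0.33 after 8 days (limma, adjusted p = 0.0145), a call lost without starved daf-2 RNAi B, starved EV A or starved EV C (highest adjusted p = 0.064). After 1 day it differed by 0.11 ± 0.33 (adjusted p = 0.976). The difference between its 2 RNAi effects, -1.56 ± 0.46, was not called by limma (adjusted p = 0.492) but was with the letter as a block (adjusted p = 0.0136).

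**Figure D3:**
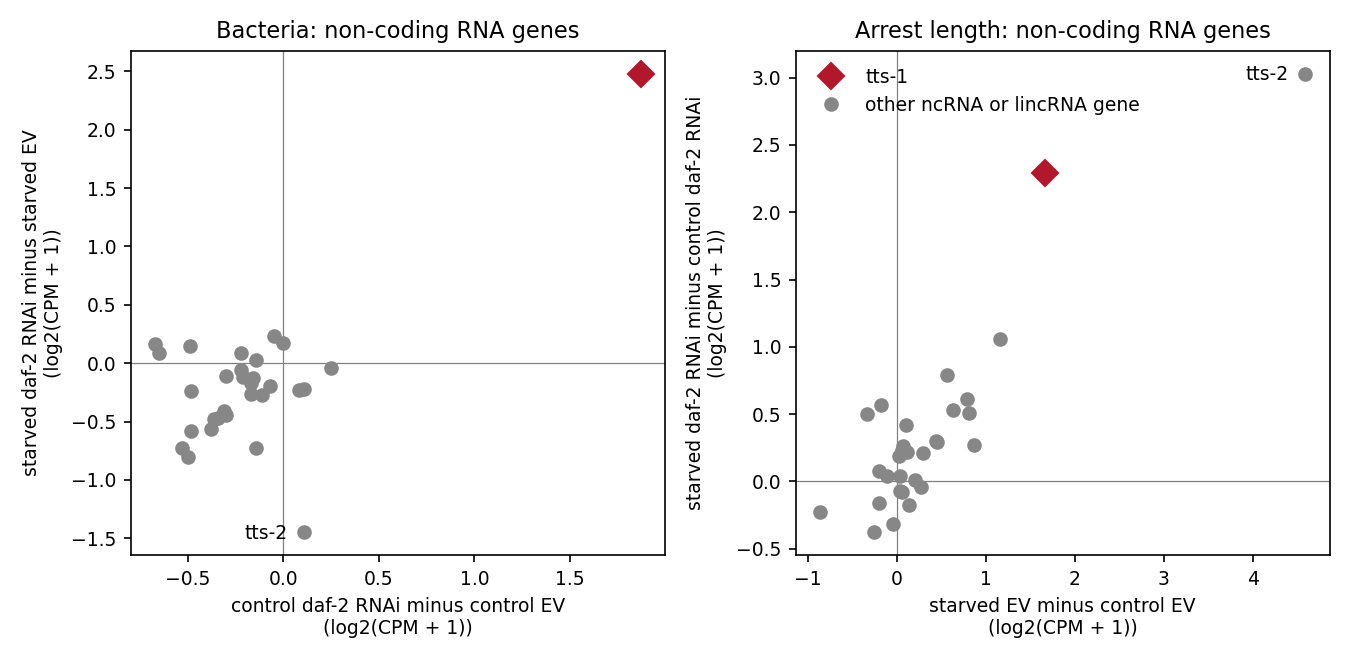
Differences on the log2(CPM + 1) scale for tts-1 (diamond) and 29 other non-coding RNA genes (dots). The left panel sets daf-2 RNAi minus EV after 8 days against that after 1 day of arrest, and the right panel starved minus control on daf-2 RNAi against that on EV, with no library shared between the axes of a panel. tts-1, chosen for its difference between bacteria, lies at 1.87 and 2.48 on the left, and on the right tts-2 is farther out than tts-1.

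Genes that DAF-16 is known to activate were set beside tts-1. Of 18 such genes 16 were tested, and under daf-2 RNAi 7 rose and 1 fell after 8 days, against 3.8% of all genes higher and 11.9% lower. After 1 day 6 rose and none fell, against 0.663% of all genes higher and 0.725% lower. Those that rose at both arrest lengths were sod-3, dod-3, the lysozyme gene lys-7, the ferritin gene ftn-1, the nicotinamide nucleotide transhydrogenase gene nnt-1 and the fatty acid desaturase gene fat-5. The small heat shock protein gene hsp-12.3 fell after 8 days. The count after 8 days was 5 in all without starved EV A. Their median differences were 0.57 and 0.53, against 0.00 and -0.01 over all genes. The manganese superoxide dismutase gene sod-3 averaged 12.1 ± 2.51 CPM in starved daf-2 RNAi and 3.52 ± 0.804 CPM in starved EV libraries, and 11 ± 1.52 CPM in control daf-2 RNAi and 1.94 ± 0.394 CPM in control EV libraries (SD, n = 3 each). It rose under the RNAi label by 1.53 ± 0.20 after 8 days and by 2.04 ± 0.20 after 1 day (log2, SE; limma, adjusted p = 7.55e-04 and 1.5e-04). Its reads may be mixed with those of lido-1 and C08A9.3, with which its exons share 24 and 65 bases.

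Unlike tts-1, sod-3 did not pass the test between starved and control animals on daf-2 RNAi (0.11 ± 0.20, adjusted p = 0.917). On EV it was called at 0.62 ± 0.20 (limma, adjusted p = 0.0479), a call lost without any 1 of 8 libraries, up to 0.158. The metallothionein gene mtl-1 had 10.5, 8.96 and 37.4 CPM in starved daf-2 RNAi libraries A, B and C, against 0.635, 1.26 and 1.15 CPM in starved EV libraries. Like tts-1 it was highest in library C of that group. In control daf-2 RNAi libraries it had 2.45, 1.39 and 8.59 CPM, against 0.149, 0.0414 and 0.14 CPM in control EV libraries.

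Across arrest lengths, 5 of the 16 DAF-16 activated genes rose on EV and none fell, against 11.5% of all genes higher and 6.12% lower, with a median of 0.72 (0.03 over all genes), namely sod-3, nnt-1, dod-3, fat-5 and the catalase gene ctl-2. On daf-2 RNAi 1 rose and none fell, against 0.663% of all genes higher, with a median of 0.46 (0.01 over all genes), that 1 being dod-3, whose call was lost without starved daf-2 RNAi A, starved daf-2 RNAi C or control daf-2 RNAi B (highest adjusted p = 0.0853). The EV count was 2 or 3 without control EV B, control EV C or starved EV A. With the letter as a block 10 rose on EV and 6 on daf-2 RNAi, against 2995 and 395 of the 12830 tested genes. Of 12 genes that DAF-16 is known to keep low, 9 were tested. After 8 days 5 fell under daf-2 RNAi (dod-17, dod-19, dod-22, dod-23 and dod-24), against 11.9% of all genes lower. After 1 day 1 did, dod-24, against 0.725% of all genes lower, or 4 with the letter as a block, against 4.02%. Their medians were -1.07 and -0.36, against 0.00 and -0.01 over all genes. The count after 8 days was 3 without starved daf-2 RNAi B, starved EV A or starved EV C. None of the 9 was called between arrest lengths. With the letter as a block 7 of the 9 were higher on EV, against 2995 of the 12830 tested genes. Their median on EV was 0.55 (0.12 after quantile normalisation). dod-24, a gene of the innate immune response, averaged 7.29 ± 2.67 CPM in starved daf-2 RNAi and 30.2 ± 2.25 CPM in starved EV libraries (SD, n = 3 each).

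Of 16 tested genes of the insulin pathway itself, 5 rose and 1 fell under daf-2 RNAi after 8 days, against 3.8% of all genes higher and 11.9% lower, with a median of 0.36. With the letter as a block 11 rose and 2 fell, against 23.7% of all genes higher and 24.3% lower. After 1 day 1 rose and 1 fell, against 0.663% higher and 0.725% lower, with a median of 0.19, and with the block 3 rose and 1 fell, against 1.78% and 4.02%. The count after 8 days was 2 or 3 without starved daf-2 RNAi A or B, starved EV A or C, or control daf-2 RNAi C. The count after 1 day was 1 without control EV A, B or C, control daf-2 RNAi A or C, or starved EV B or C. The AKT kinase gene akt-1 averaged 259 ± 25.3 CPM in starved daf-2 RNAi, against 173 ± 11 CPM in starved EV libraries, and rose by 0.58 (limma, adjusted p = 0.00612). The kinase gene sgk-1, whose product also acts on DAF-16, fell to 15.4 ± 0.535 CPM, against 28.5 ± 1.3 CPM (SD, n = 3 each), a log2 difference of -0.85 (limma, adjusted p = 0.00176). Between arrest lengths 1 of the 16, the AKT kinase gene akt-2, rose on EV, against 11.5% of all genes higher and 6.12% lower. None was called on daf-2 RNAi, against 0.663% higher and 0.039% lower. With the letter as a block 4 rose and 8 fell on EV, against 2995 and 3376 of the 12830 tested genes. On daf-2 RNAi the block gave 1 higher, against 395.

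The 10 genes whose log2 levels ran most like those of tts-1 over the 12 libraries, out of 7467 genes whose mean reached 10 CPM, had Pearson correlations of 0.911 to 0.972. They were F53B2.8, dod-3, F56D6.9, msa-1, pals-23, bcmo-2, cdr-2, T12D8.5, far-3 and C52D10.3. This likeness was measured over libraries that share groups and letters, and it describes them without a test. Over all genes compared the median correlation was -0.051, and 15 genes were above 0.9. All 10 had their highest mean in starved daf-2 RNAi and their lowest in control EV libraries, as did 362 of the 7467 genes. By Spearman correlation only 5 of the 10 stayed among the 10 most alike.

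**Figure D4:**
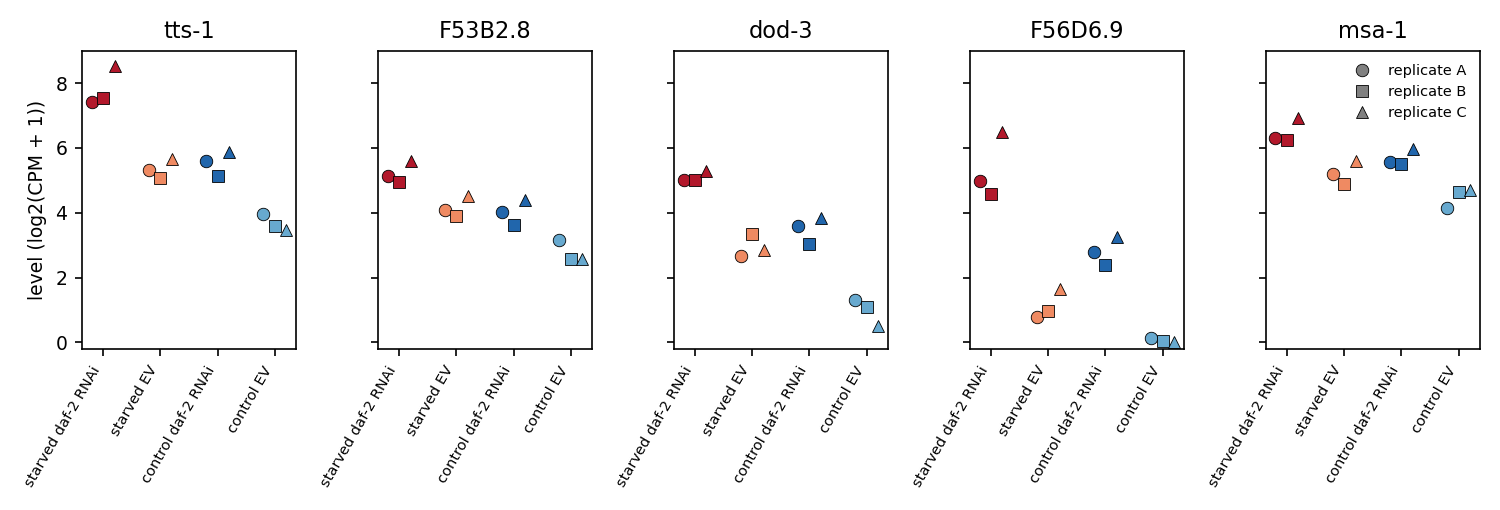
Levels (log2(CPM + 1)) of tts-1 and the 4 genes most like it in every library, with groups along the horizontal axis and symbols for the replicate letter. Each of the 5 genes has its highest mean in starved daf-2 RNAi and its lowest in control EV libraries.

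F53B2.8, for which the annotation used here gives no gene class name, was the closest of them, with r = 0.972 over 12 libraries. It had 34.1, 29.7 and 47.1 CPM in starved daf-2 RNAi libraries A, B and C, and 16.1, 14 and 22 CPM in starved EV libraries. In control daf-2 RNAi libraries it had 15.4, 11.4 and 19.9 CPM, against 7.93, 4.92 and 5.02 CPM in control EV libraries. Its range was narrower than that of tts-1, and letter A was again the highest in control EV and letter C in the other groups. Second was dod-3 (r = 0.962), found in screens for genes downstream of daf-16. It averaged 33.5 ± 4.09, 6.95 ± 2.02, 10.5 ± 3.05 and 1.01 ± 0.542 CPM in starved daf-2 RNAi, starved EV, control daf-2 RNAi and control EV libraries (SD, n = 3 each).

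F56D6.9 (r = 0.96) ranged farthest. It had 30.9, 22.9 and 89.7 CPM in starved daf-2 RNAi libraries A, B and C, against 0.726, 0.981 and 2.16 CPM in starved EV libraries. In control daf-2 RNAi libraries it had 5.87, 4.29 and 8.48 CPM, and control EV libraries had 0.0991, 0.0414 and 0 CPM. Its exons share 237 bases with oac-21, and the libraries cannot separate the strands. far-3, of the family that binds fatty acids and retinol, had 63.6, 75.5 and 144 CPM in starved daf-2 RNAi libraries, against 22.7, 27.3 and 38.8 CPM in starved EV libraries, and shares 50 exon bases with far-5. Of the 10 genes, limma called 9 higher under daf-2 RNAi after 8 days and 8 after 1 day, and 8 higher in starved animals on EV but 3 on daf-2 RNAi, which the choice by likeness favours.

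The 5 most opposite genes had correlations of -0.933 to -0.943. They were ctsa-3.1, of the cathepsin A family, the intestinal acid phosphatase gene pho-1, the moulting protease gene nas-37 and the collagen genes col-179 and col-20. All 5 had their lowest mean in starved daf-2 RNAi and their highest in control EV libraries. pho-1 averaged 24.8, 54.7, 38.5 and 65.4 CPM in starved daf-2 RNAi, starved EV, control daf-2 RNAi and control EV libraries, and its exons share 120 bases with EGAP2.1. With the group means removed, F55H12.2 (r = 0.945) and the C-type lectin gene clec-186 (r = 0.938) followed the deviations of tts-1 most closely, yet over the 12 libraries their correlations with tts-1 were -0.254 and -0.317. F53B2.8 and F56D6.9 were the only genes among both the 10 most alike over the libraries and the 5 most alike in deviations.

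None of the 3 nearest listed genes on each side of tts-1 was called higher in all 4 comparisons. At most 0.663% of all genes could be, the share called higher between arrest lengths on daf-2 RNAi. The closer genes F09E10.14 and F09E10.10 are not among the listed genes. F09E10.1, which lies 852 bases away on the other strand, averaged 7.62 ± 3.51 CPM in starved daf-2 RNAi, 11.3 ± 2.82 CPM in starved EV, 4.89 ± 1.69 CPM in control daf-2 RNAi and 4.93 ± 2.27 CPM in control EV libraries (SD, n = 3 each). It rose in starved EV animals by 1.09 (limma, adjusted p = 0.0397), a call lost without any 1 of 5 libraries, up to 0.131, and it was called in no other comparison. F09E10.7, toca-1, K06A9.3 and K06A9.2, between 2278 and 31524 bases away, were called in none of the 4 comparisons. The short-chain dehydrogenase gene dhs-25, 14804 bases away, fell to 79 ± 16.3 CPM in starved daf-2 RNAi, against 165 ± 22.2 CPM in starved EV libraries, a log2 difference of -1.07 (limma, adjusted p = 0.00281). After 1 day it fell to 93.6 ± 14.2 CPM under daf-2 RNAi, against 212 ± 25.4 CPM on EV, a log2 difference of -1.17 (limma, adjusted p = 0.00414; SD, n = 3 each).

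Because the tts-1 RNA is known from ribosomes, the genes of cytosolic ribosomal proteins were set beside it. Their summed level was 66803 to 77528 CPM in starved daf-2 RNAi, 65054 to 82468 CPM in starved EV, 73829 to 83721 CPM in control daf-2 RNAi and 87990 to 109752 CPM in control EV libraries. The control EV group, where tts-1 was lowest, thus had the highest sums, and the ranges of the other 3 groups overlapped, the starved daf-2 RNAi group among them. In starved EV against control EV animals 19 of the 80 genes fell and none rose, against 6.12% of all genes lower and 11.5% higher, with a median of -0.46 (-0.20 after quantile normalisation). That count was 1 or 2 without starved EV A, starved EV C, control EV B or control EV C, 8 to 12 without starved daf-2 RNAi A, control daf-2 RNAi B or control daf-2 RNAi C, and 29 and 31 without control EV A and starved EV B. With the letter as a block 78 of the 80 were lower there, against 3376 of the 12830 tested genes. In starved against control animals on daf-2 RNAi, none of the 80 was called (median -0.10). Under daf-2 RNAi 2 of 80 fell and none rose at both arrest lengths, against 11.9% of all genes lower after 8 days and 0.725% after 1 day, with medians of 0.00 and -0.36. With the letter as a block 45 were lower after 1 day, against 4.02% of all genes. The count after 1 day was 0 without control EV A, B or C or control daf-2 RNAi A or C. The 2 after 8 days were rpl-11.2 (-0.78, limma, adjusted p = 0.00829) and rpl-25.1 (-0.71, adjusted p = 0.0117), the second lost without starved daf-2 RNAi B (0.0514).

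Factors that make ribosomes were counted in the same way. Of 18 tested, 8 fell in starved EV against control EV animals (median -0.41), against 6.12% of all genes lower, or 2 without starved EV A, starved EV C, control EV B or control EV C, and none was called between arrest lengths on daf-2 RNAi (median -0.18). With the letter as a block 16 of the 18 were lower on EV, against 3376 of the 12830 tested genes. Under daf-2 RNAi after 8 days 1 rose, the helicase gene ruvb-1 (0.41, limma, adjusted p = 0.0449, lost without any 1 of 9 libraries), against 3.8% of all genes higher, or 5 with the letter as a block, against 23.7%, and after 1 day none was called.

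Tissue markers are given for the same comparisons. In starved EV against control EV animals 11.5% of all genes were called higher and 6.12% lower, and in starved against control animals on daf-2 RNAi 0.663% and 0.039%. With the letter as a block 2995 of the 12830 tested genes were higher and 3376 lower on EV. On daf-2 RNAi the block gave 395 higher and 86 lower between arrest lengths. Under daf-2 RNAi 3.8% were higher and 11.9% lower after 8 days (23.7% and 24.3% with the letter as a block), and 0.663% and 0.725% after 1 day (1.78% and 4.02% with the block). In whole animals, fewer cells of a type and less RNA per cell cannot be told apart. No marker of the 8 tissue lists was at 0 in all 3 libraries of a group. The summed level of 15 germline genes was 3570 to 4364 CPM in starved daf-2 RNAi, 2212 to 3270 CPM in starved EV, 3886 to 4959 CPM in control daf-2 RNAi and 3661 to 4486 CPM in control EV libraries. On EV 5 of the 15 fell in starved animals, fbf-1, fbf-2, htp-3, glh-1 and pgl-1 (median -0.43), or 2 without starved EV A, starved EV C, control EV B or control EV C, and 14 with the block. On daf-2 RNAi none was called between arrest lengths (median -0.10), where tts-1 differed by 2.29. Under daf-2 RNAi after 8 days 4 germline genes rose, htp-3, glh-1, deps-1 and pgl-1, or 13 with the letter as a block and none without starved daf-2 RNAi B or starved EV C, and after 1 day none was called. Oocyte and eggshell genes summed to 12019 to 14190 CPM in starved daf-2 RNAi, 8058 to 10823 CPM in starved EV, 11893 to 14660 CPM in control daf-2 RNAi and 9701 to 12140 CPM in control EV libraries. Of these 15 genes 8 rose under daf-2 RNAi after 8 days, or 13 with the block and none without starved daf-2 RNAi B, starved EV A or starved EV C, and 1, spn-4, fell in starved EV animals. That last count was 0 without starved EV A, starved EV C, control EV B or control EV C, 3 without control EV A and 5 without starved EV B. The block gave 13 lower and 2 higher in starved EV animals. Of 33 sperm genes 1, spe-44, rose under daf-2 RNAi after 8 days, and it alone fell in starved EV animals, shares below those of all genes. Its call was lost without any 1 of 10 libraries after 8 days (highest limma adjusted p = 0.144) and of 7 in starved EV animals (0.145). Sperm gene sums were 255 to 384, 210 to 233, 253 to 294 and 231 to 285 CPM in starved daf-2 RNAi, starved EV, control daf-2 RNAi and control EV libraries.

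Pharynx markers summed to 85 to 379 CPM in starved daf-2 RNAi, 163 to 641 CPM in starved EV, 55 to 103 CPM in control daf-2 RNAi and 76 to 269 CPM in control EV libraries. Of 11 markers 5 rose in starved EV animals, ceh-22, pha-4, phat-5, ttx-1 and abu-14, or 3 without starved EV A, starved EV C, control EV B or control EV C, and 2, phat-5 and abu-14, rose in starved animals on daf-2 RNAi. Under daf-2 RNAi 6 fell after 8 days, or 2 or 3 without starved daf-2 RNAi B, starved EV A or starved EV C, and none was called after 1 day, or 2 lower with the block. Hypodermis and cuticle markers summed to 761 to 916 CPM in starved daf-2 RNAi, 1460 to 1645 CPM in starved EV, 1117 to 2030 CPM in control daf-2 RNAi and 1676 to 2380 CPM in control EV libraries. Of 13 markers 5 rose in starved EV animals, nhr-25, sqt-3, dpy-7, dpy-10 and lon-3, and 4 fell under daf-2 RNAi after 8 days, nhr-25, elt-3, dpy-10 and col-19, or none without starved daf-2 RNAi B or starved EV C, 1 without starved EV A and 2 without starved daf-2 RNAi C. The block gave 6 higher and 1 lower in starved EV animals. In starved animals on daf-2 RNAi it gave 4 higher and 1 lower.

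Intestine markers summed to 29183 to 53444 CPM in starved daf-2 RNAi, 43345 to 122439 CPM in starved EV, 29921 to 53478 CPM in control daf-2 RNAi and 26477 to 90935 CPM in control EV libraries, and these ranges overlapped. Of 17 markers 3 rose in starved EV animals, the esterase gene ges-1, pgp-1 and mtl-2, a share near that of all genes. With the block 9 were higher and 1 lower there, against 2995 and 3376 of the 12830 tested genes. Under daf-2 RNAi 1 rose, ges-1, and 6 fell after 8 days (3 and 14 with the block), and 1 rose and 1 fell after 1 day (2 and 4 with the block). After 8 days 1 rose and 3 fell without starved daf-2 RNAi B or starved EV A. After 1 day none fell without any 1 of the 6 control libraries. Neuron markers summed to 406 to 496 CPM in starved daf-2 RNAi, 457 to 639 CPM in starved EV, 359 to 383 CPM in control daf-2 RNAi and 374 to 432 CPM in control EV libraries. Of 12 neuron markers 2, rab-3 and unc-64, rose in starved EV animals and 1, unc-18, fell under daf-2 RNAi after 8 days, or 4 with the block. The rises numbered 1 without starved EV A, starved EV C, control EV B or C, or control daf-2 RNAi B or C, and 7 with the block. The call of unc-18 was lost without any 1 of 4 libraries (highest limma adjusted p = 0.121). None of 11 body wall muscle markers was called in the 4 comparisons, or 9 lower under daf-2 RNAi after 8 days with the block, and their sums were 2365 to 5906, 3282 to 9717, 3060 to 5125 and 3618 to 7981 CPM in starved daf-2 RNAi, starved EV, control daf-2 RNAi and control EV libraries. In starved EV animals 1 muscle marker was higher with the block. The part of all these marker levels in the level of tts-1 was not tested.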

How the data were processed

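The table was deposited as a normalised signal per gene and library, which its name calls CPM, and column sums differ, so the authors scaled library sizes. Per the submitters' processing notes Bowtie 1.1.2, HTSeq 0.12.4 and edgeR were used, without a stated role. Their genome build and annotation: not given in the sources used here. Dividing each column by its step gave whole reads for 100% of values, within 0.01 read. In 3 columns this takes the smallest value as 2 reads. These served depths and 2 alternative tests only. Names and lengths came from the WBcel235 annotation (Ensembl release 115), which matched 12727 genes and not 167.

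The 12830 genes that reached 1 CPM in 3 or more libraries were tested with limma 3.58.1 in R 4.3.3, with a trend, on log2(CPM + 1), which shrinks changes near or below 1 CPM. All 4 groups shared 1 fit, tests were two-sided, and p-values were adjusted by Benjamini-Hochberg over all genes tested, with a threshold of 0.05. The design text calls the samples biological replicates. On simulated counts for starved EV against control EV, with 200 of 12830 genes changed, 13.4% of changes of 1.5 times, 41.8% of changes of 2 times and 86.4% of changes of 4 times were called, and 6 of the 100 calls were false.

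The gene and the 13 hand-made lists, plus other non-coding genes, were chosen with earlier results of these data known, and list counts are descriptions. Named genes are those of the stated likeness (10 highest, 5 lowest, 5 by deviations), the 3 nearest listed genes on each side, tts-2, sod-3, mtl-1, daf-16, daf-2, up to 4 called members of each list with the largest change under daf-2 RNAi after 8 days, and up to 10 abundant non-coding genes. Other called members of small counts were named after their values were seen. Same-lettered libraries deviated together between bacteria (correlations 0.821, 0.596 and 0.593 after 8 days and 0.695, 0.55 and 0.541 after 1 day for A, B and C), so the letters pair these, as the data show. Between arrest lengths this differed by letter. For EV libraries the correlations were 0.645, 0.085 and 0.659 (A, B, C). For daf-2 RNAi libraries they were 0.487, -0.095 and 0.579 in the same order. Letters A and C thus deviated together across arrest lengths too, while letter B did not. Within groups, the chi-square per gene between replicates was 17.5 to 220, far above sampling noise. Alternatives were a pseudocount of 0.25, no filter, a mean of at least 5 CPM, quantile normalisation, fits of 2 groups, edgeR 4.0.16, DESeq2 1.42.0, the block and leaving out each library.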

Additional observations from a re-analysis of the deposited data

How the results depend on the processing

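Both arrest differences of tts-1 kept their direction and stayed called under each of the 20 alternatives run, at 1.52 to 1.82 (log2; limma, edgeR or DESeq2 adjusted p 3.74e-06 to 0.0167) on EV and 1.94 to 2.5 (adjusted p 4.69e-11 to 0.0166) on daf-2 RNAi. The interaction was called under none of 19, at 0.27 to 0.82 (adjusted p 0.243 to 0.92). With 1 library left out, the daf-2 RNAi difference was 2.14 to 2.69 after 8 days and 1.7 to 2.07 after 1 day. The replicate block, with the letter as a pair, changed no call for tts-1. Numbers of called genes moved far more, and the cause was not tested. For starved EV against control EV, limma called 2266 genes (1481 higher, 785 lower), against 1335 with a mean of at least 5 CPM, 1484 (846 higher, 638 lower) after quantile normalisation, 1124 in a fit of these groups only, 6371 with the replicate block and 665 to 2466 with 1 library left out. For starved against control animals on daf-2 RNAi the 90 genes became 16, 54, 45, 481 and 28 to 181 in the same order, and 372 with DESeq2. For daf-2 RNAi against EV after 8 days the 2017 genes (488 higher, 1529 lower) became 1329 with a mean of at least 5 CPM, 1035 in a fit of these groups only, 6151 with the replicate block and 675 to 2086 with 1 library left out, while quantile normalisation gave 1818 (769 higher, 1049 lower). After 1 day the 178 genes (85 higher, 93 lower) became 91 in a fit of these groups only, 745 with the replicate block, 383 with DESeq2 and 60 to 181 with 1 library left out, and quantile normalisation gave 156 (91 higher, 65 lower). The interaction, with 0 genes called, gave 63 with the replicate block, 4 with DESeq2 and 0 with any library left out, and a fit of only its own groups is the same fit. With 215 reads or more of tts-1 per library, depth limits its values less than the 3 libraries per group do.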
